A study of Mus musculus with 3 samples.

Results

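The genes described are 34 genes of DNA replication and S phase, chosen by name and all found among the 14811 genes of a single-cell expression table of mouse T cells from tumors. They cover the replicative helicase, origin licensing, the sliding clamp and its loader, polymerases and primase, lagging strand processing, nucleotide supply, fork protection and repair, chromatin assembly, cohesion and 1 transcription factor. Each was measured with at least 129 UMIs (unique molecular identifiers, tags that let copies of 1 RNA molecule be counted once).

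B16F10 melanoma, a transplantable mouse melanoma line, was grown under the skin, and 1 day later either CD4+ T cells marked by CD45.1 or CD8+ T cells marked by CD45.2 were given intravenously, with no other treatment. On day 11 the tumors of 10 mice were pooled and 4 T cell populations were sorted, namely CD8+CD4+ and CD8+ cells carrying CD45.2, and CD4+CD8+ and CD4+ cells carrying CD45.1. Each population received its own hashtag, and about 6200 pooled cells were loaded as 1 library that reads transcript 5′ ends, and sequenced. The labels do not tie a hashtag number, from 1 to 4, to a population, so cells were compared by the classes that the authors' deposited annotation gives: 313 Cd8-identity Tdp cells, 2681 cells of the Cd8 class, 93 Cd4-identity Tdp cells and 2477 cells of the Cd4 class. Tdp cells carry a UMI of both Cd4 and Cd8a, which deeply read cells reach more easily. All cells came from 1 pool, so there was no biological replicate and no test, and the hashtag numbers are parts of that pool. All intervals are 95% intervals for counting error only and do not cover differences between mice.

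Before a cell divides, licensing factors such as Cdc6 and Cdt1 load the ring of Mcm2 to Mcm7 onto origins in G1. Cdc45 and the GINS complex then switch this ring into an active helicase, primase and polymerases copy the strands behind it, and the Pcna clamp holds the copying enzymes on DNA. Many of these genes are transcribed under E2F factors as cells enter S phase, and T cells that meet antigen switch the program on as they begin to divide.

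The 5564 cells held 26763131 UMIs, with a median of 3869 per cell and a range of 501 to 23946. The 34 genes together held 57190 UMIs, which is 0.214% of the total or 2144 counts per 1000000 UMIs (CPM), and 5015 cells (90.1%) had at least 1 of them. The median cell held 4981 UMIs among Cd8-identity Tdp and 4159 in the Cd8 class, and 4668 among Cd4-identity Tdp against 3478 in the Cd4 class. T cell markers summed to between 4363 and 4894 CPM in the 4 classes, with all 5 measured genes present. Macrophage or monocyte markers summed to 367 CPM in Cd8-identity Tdp against 1052 CPM in the Cd8 class, and to 52.4 CPM in Cd4-identity Tdp against 485 CPM in the Cd4 class, and melanoma markers to between 3.49 and 12.9 CPM, with Pmel and Tyr at 0 in both Tdp classes. Cells in which 2 or more Trbv genes, which encode the variable part of the receptor beta chain, had at least 2 UMIs each, a sign of 2 cells in a droplet, made up 19.2%, 12.8%, 38.7% and 9.29% of the 4 classes in the same order. Cells with at least 2 UMIs of markers of other cell types made up 5.11%, 8.73%, 3.23% and 4.72%.

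The promoters of 4 genes show the sequence around genes whose levels behaved differently below: among cycling cells Mcm6 and Cdc6 were lower, and Pclaf and E2f8 higher, in those with the most than in those with the least RNA of mitosis genes. They are RefSeq entries of build GRCm38.p6, each 300 bases long with 250 before and 50 from an annotated start onward, read 5′ to 3′ on the gene's strand. Capitals mark matches to the E2F-type letters TTTCCCGC, TTTGGCGC, TTTCGCGC and TTTGCCGC, to the CHR (cell cycle homology region) letters TTTGAA and TTCGAA, and to CCAAT, on either strand. In Mcm6 a pair of E2F-type matches overlaps. The Mcm6 promoter lies at chr1:128359656-128359955 on the minus strand, Cdc6 at chr11:98907901-98908200 on the plus strand, Pclaf at chr9:65890073-65890372 on the plus strand and E2f8 at chr7:48881547-48881846 on the minus strand.
Mcm6: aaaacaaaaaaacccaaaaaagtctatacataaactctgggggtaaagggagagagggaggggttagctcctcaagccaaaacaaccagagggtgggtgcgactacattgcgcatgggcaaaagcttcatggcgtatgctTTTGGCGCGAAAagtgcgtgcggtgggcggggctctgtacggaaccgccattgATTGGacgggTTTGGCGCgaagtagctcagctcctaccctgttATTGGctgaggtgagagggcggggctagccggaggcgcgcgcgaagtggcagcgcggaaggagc
Cdc6: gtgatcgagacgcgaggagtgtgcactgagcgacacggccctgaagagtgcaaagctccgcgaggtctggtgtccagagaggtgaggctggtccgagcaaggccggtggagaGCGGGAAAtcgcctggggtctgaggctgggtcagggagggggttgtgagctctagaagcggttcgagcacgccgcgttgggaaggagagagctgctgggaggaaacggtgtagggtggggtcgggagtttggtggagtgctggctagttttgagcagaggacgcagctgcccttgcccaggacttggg
Pclaf: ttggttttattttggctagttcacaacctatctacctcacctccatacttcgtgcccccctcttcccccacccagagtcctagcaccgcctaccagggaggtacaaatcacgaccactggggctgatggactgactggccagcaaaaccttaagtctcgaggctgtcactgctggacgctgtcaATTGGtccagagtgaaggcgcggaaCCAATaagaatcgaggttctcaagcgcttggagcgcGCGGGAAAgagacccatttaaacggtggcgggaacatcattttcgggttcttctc
E2f8: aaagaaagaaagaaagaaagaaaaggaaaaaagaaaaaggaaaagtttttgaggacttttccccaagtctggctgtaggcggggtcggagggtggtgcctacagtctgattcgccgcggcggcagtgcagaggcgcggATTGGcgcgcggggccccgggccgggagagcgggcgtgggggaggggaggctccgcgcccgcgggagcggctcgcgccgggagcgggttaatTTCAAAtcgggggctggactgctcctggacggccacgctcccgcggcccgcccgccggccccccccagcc

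In these windows Mcm6 held 3 E2F-type and 2 CCAAT matches, Cdc6 held 1 E2F-type match and Pclaf held 1 E2F-type and 2 CCAAT matches. The E2f8 window held 1 CHR and 1 CCAAT match with no E2F-type match. The windows of Cdc6 and E2f8 lie wholly inside the annotated gene bodies, whose outer starts stand at bases 98907709 and 48882073. Sequence before those outer starts was not searched. Of genes not printed, Ung, also lower in the cells with the most mitosis RNA, held no match of any kind. Rrm2, also higher there, held 1 CCAAT match and no other. Whether matches go with levels was not tested. Promoter entries were found for 27 of the 34 genes, 32 entries in all. An E2F-type match stood in 11 of these 32 (34.4%), against 2.26% of all 32851 mouse promoters of the same length. A CCAAT match stood in 20 (62.5%), against 37.4% of all, and a CHR match in 5 (15.6%), against 19.2% of all. A match is a string of letters and not a measured binding site. Mcm4, Gins2, Rfc2, Pole, Tipin, Exo1 and Esco2 had no entry.

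The first question was how far these RNAs were found in dividing cells. A cell was called cycling when Mki67, Top2a, Cdk1 and Birc5, genes of mitosis that are not among the 34, together had at least 2 UMIs. The 884 cycling cells (15.9% of cells) held 27.2% of all UMIs and 68.7% of the UMIs of the 34 genes. All 34 had a larger share in cycling cells than the 27.2% of all UMIs, and for each the ratio of CPM, cycling over other cells, had an interval above 1, as it did for 22.3% of all 11843 genes with at least 20 UMIs, while it lay below 1 for 29.8%. Cycling cells were also deeper, with a median of 7540.5 UMIs against 3616.5 in other cells, and they were picked by UMIs of genes of the same process, so the contrast is a description.

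The share of a gene's UMIs that lay in cycling cells ran from 45.1% to 98.4%, with a median of 69.7%. Esco2, an acetyltransferase that fixes cohesin on replicated chromatids, came highest at 98.4%, with 116 CPM in cycling cells and 0.721 CPM in other cells. Pclaf, a small protein that binds the Pcna clamp, followed at 95.9%, with 844 CPM in cycling cells and 13.5 CPM in other cells. The atypical E2F repressor E2f8 stood at 95.3%, the ribonucleotide reductase subunit Rrm2 at 94.7% and the checkpoint adaptor Clspn at 92.2%. At the other end, the licensing factor Cdt1 had 45.1% of its UMIs in cycling cells, with 88.0 CPM there and 40.1 CPM in other cells. Rpa2, a subunit of the protein that coats single-stranded DNA, had 46.3%, with 177 CPM in cycling and 76.8 CPM in other cells. The clamp loader subunit Rfc2 (49.4%), the uracil glycosylase Ung (50.4%) and the histone chaperone subunit Chaf1b (52.4%) completed the lowest 5.

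**Figure D1:**
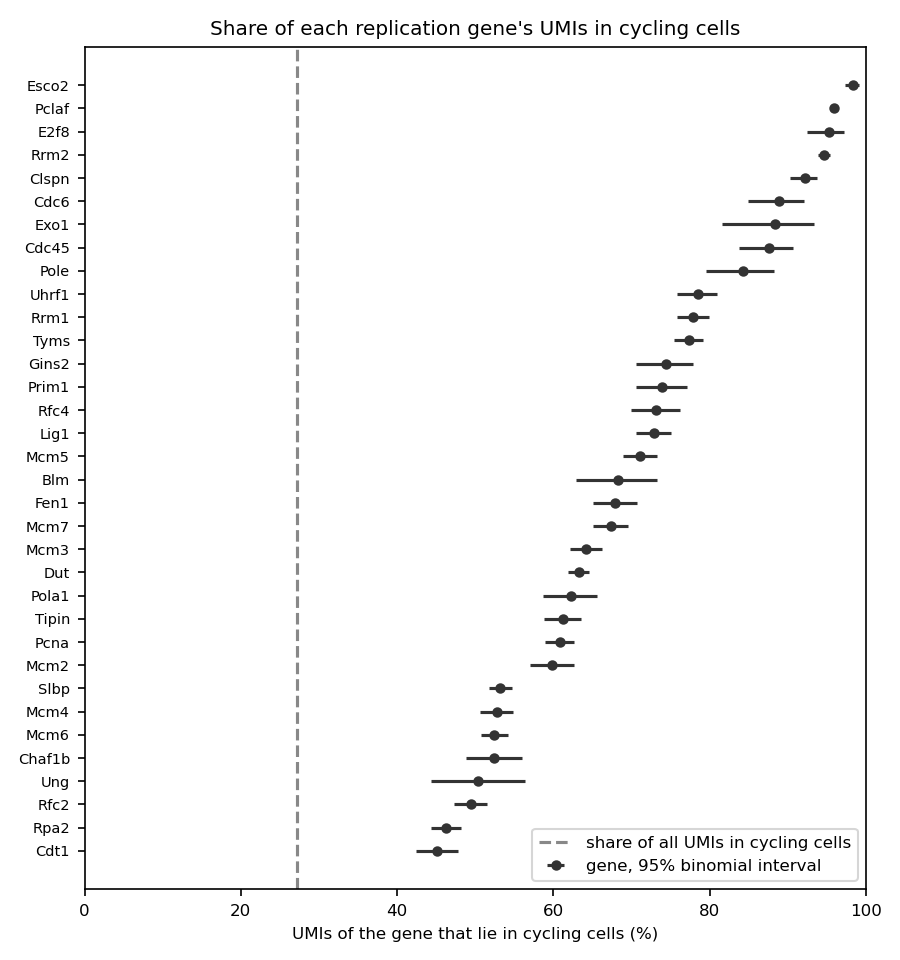
Share of each gene's UMIs, in percent, that lay in the 884 cycling cells, per gene, with the share of all UMIs for comparison. All 34 genes lie to the right of 27.2%, from Cdt1 at 45.1% to Esco2 at 98.4%.

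The plot of shares in cycling cells shows that genes grouped by role, which are not all parts of 1 complex, did not always sit together. Among the 8 helicase genes the share ran from 52.4% for Mcm6 to 87.5% for Cdc45, while within the Mcm ring it reached no higher than 71.1% for Mcm5. The pair of licensing factors spanned 45.1% for Cdt1 and 88.8% for Cdc6. The clamp and loader genes, counted with the clamp-binding Pclaf, spanned 49.4% for Rfc2 and 95.9% for Pclaf. The loader subunit Rfc4 stood at 73.1%. Both lagging strand genes were close, at 67.9% for Fen1, the flap endonuclease, and 72.9% for the ligase Lig1. Polymerase and primase genes ran from 62.2% for Pola1 to 84.2% for Pole, and the nucleotide supply genes from 63.2% for Dut, which removes dUTP, to 94.7% for Rrm2.

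Graded by mitotic UMIs, the level of the 34 genes together was 856 CPM in the 3924 cells with none, 1196 CPM in 756 cells with 1, 2126 CPM in 161 cells with 2, 4569 CPM in 88 cells with 3 to 4, 5677 CPM in 115 cells with 5 to 9, 7333 CPM in 170 cells with 10 to 19, and 5609 CPM in 350 cells with at least 20. The level was thus highest one step below the top. A level of 856 CPM therefore remained in cells with no sign of division in these 4 genes. How much of it is free RNA from other cells was not tested.

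Genes reached their top at different steps. Chaf1b, Mcm6 and Ung were highest in cells with 3 to 4 mitotic UMIs, and Cdc6, Mcm2, Mcm3, Mcm4, Mcm7 and Rfc2 in cells with 5 to 9. Another 22 genes were highest in cells with 10 to 19, and Blm, Esco2 and Rrm1 in cells with at least 20. Ung went through 6.23 CPM with no mitotic UMI, 11.7 with 1, 18.6 with 2, 60.4 with 3 to 4, 53.0 with 5 to 9, 23.4 with 10 to 19 and 3.65 CPM with at least 20. Esco2 went through 0.763, 0.543, 1.09, 1.78, 54.1, 140 and 170 CPM over the same steps. Ung was thus back below its level in cells with no mitotic UMI where Esco2 was at its highest. Cdc6 stood at 1.78, 2.44, 10.9, 71.1, 80.6, 57.4 and 26.7 CPM, and Pclaf at 9.79, 29.3, 80.9, 345, 625, 1129 and 1069 CPM. Mcm6 stood at 71.6, 97.8, 190, 325, 308, 311 and 166 CPM.

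**Figure D2:**
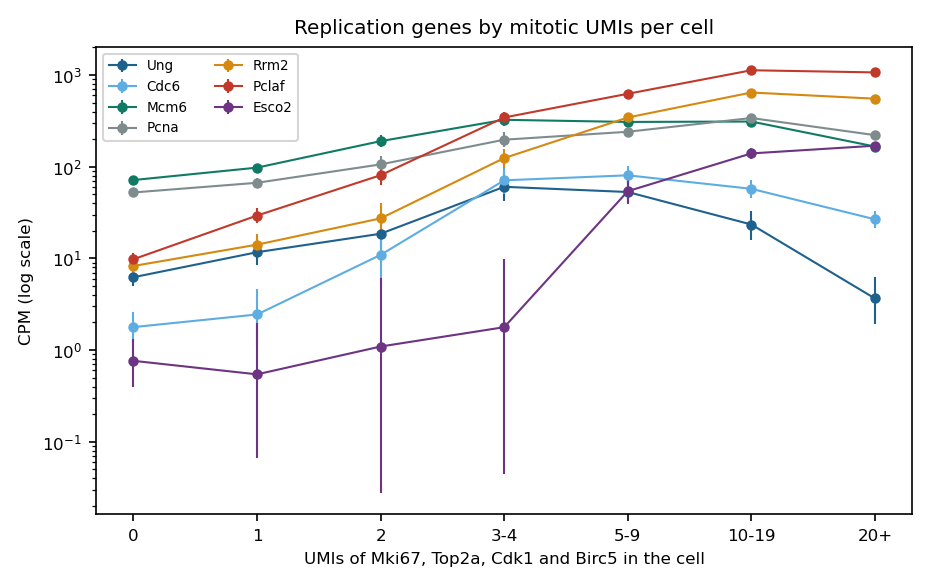
Level (CPM, log axis) of selected replication genes in cells grouped by their summed UMIs of Mki67, Top2a, Cdk1 and Birc5, from none to at least 20, with 95% Poisson intervals. Ung and Cdc6 come down again at the right of the plot, while Esco2 and Pclaf stay near their top.

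The cycling cells were next split into tertiles by a list of 20 other mitosis genes, which shares no gene with the 34 nor with the 4 that picked the cells. The low, middle and high tertiles held 295, 294 and 295 cells, with boundaries at 1067 and 4986 CPM of the list and medians of 6017, 8522.5 and 7878 UMIs per cell. The 34 genes summed to 4552 CPM in the low, 7083 CPM in the middle and 4276 CPM in the high tertile. In the high over the low tertile, 20 of the 34 had an interval below 1 and 8 above 1, while 6 included 1. Over all 9256 genes measured there, 15.1% had an interval below 1 and 15.1% above. A total of 144 cycling cells lay within 0.25 on the log2 scale of a boundary, so the tertiles are ranges and not phases.

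Licensing and Mcm genes, and Ung, were lower in the high tertile. Ung had no UMI in the high tertile, against 103 UMIs in the low tertile, and the interval of the ratio, high over low, reached up to 0.0304. With 3 UMIs set in place of the count of 0, it was 41.2-fold higher in the low one. Cdc6 had 10.1 CPM in the high tertile and 55.9 CPM in the low tertile, a ratio of 0.181 (0.113 to 0.281). Mcm6 had 99.3 CPM in the high and 322 CPM in the low tertile (ratio 0.308, 0.265 to 0.357), and Mcm2 had 44.6 and 143 CPM (ratio 0.312, 0.248 to 0.390). All 6 Mcm genes and Gins2 had intervals below 1, whereas that of Cdc45 included 1 at a ratio of 1.20 (0.878 to 1.66).

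Genes higher in the high tertile were Esco2, E2f8, Rrm2, Pclaf, Blm, Rrm1, Clspn and Tyms. Esco2 had 155 CPM in the high and 15.5 CPM in the low tertile, a ratio of 9.96 (6.93 to 14.8). E2f8 had a ratio of 2.87 (1.99 to 4.21), Rrm2 of 2.48 (2.21 to 2.79), Pclaf of 2.42 (2.23 to 2.63), and the helicase Blm, which resolves joined DNA strands, of 2.27 (1.51 to 3.5). Rrm1, the partner subunit of Rrm2, had 1.94 (1.64 to 2.30). Most of these genes were in fact highest in the middle tertile: 27 of the 34 peaked there, 6 peaked in the low tertile (Gins2, Mcm2, Mcm3, Mcm4, Mcm6 and Ung) and Blm alone in the high one. Pclaf, for example, went through 367, 1161 and 890 CPM from low to high.

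**Figure D3:**
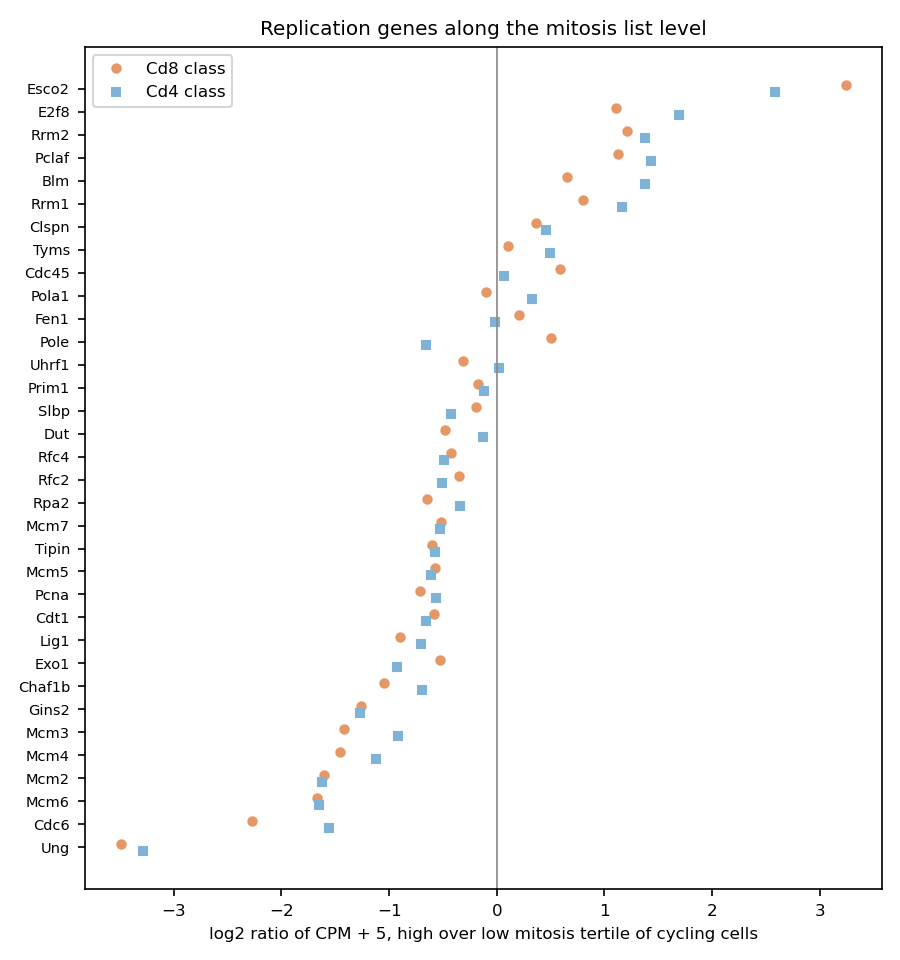
Log2 ratio of CPM with 5 CPM added, high over low mitosis tertile of the cycling cells, for each gene in the cycling cells of the Cd8 class (circles) and the Cd4 class (squares). Ung and Cdc6 lie at the low end and Esco2 at the high end in both classes.

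The single-positive classes were also taken apart. With the same boundaries, 30 of the 34 genes had the same direction in the Cd8 class and the Cd4 class, 21 lower and 9 higher, and the exceptions were Pola1, Pole, Fen1 and Uhrf1. Of the 7180 genes with at least 20 UMIs in these tertiles of both classes, 33 of the 34 among them, 64.7% had the same direction. Mcm6 had 99.2 CPM in the high and 327 CPM in the low tertile of the Cd8 class, and 92.7 and 301 CPM in the Cd4 class. Esco2 had 181 CPM in the high and 14.7 CPM in the low tertile of the Cd8 class, and 132 and 17.9 CPM in the Cd4 class. Ung had no UMI in the high tertile of either class. With 3 UMIs set in place of this count, it was 20.5-fold higher in the low tertile of the Cd8 class and 14.0-fold in that of the Cd4 class.

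The classes differed in how many cells were cycling. The share was 23.6% (19 to 28.7) of Cd8-identity Tdp cells and 17.6% (16.2 to 19.1) of the Cd8 class, and 22.6% (14.6 to 32.4) of Cd4-identity Tdp cells and 12.8% (11.5 to 14.2) of the Cd4 class. With every cell thinned to 2000 UMIs, a depth that 309, 2500, 89 and 2245 cells of these classes reached, the shares were 18.4% and 13.5%, and 15.7% and 9.09%. For each Tdp cell, the 3 single-positive cells nearest in depth were also taken from the same hashtag number. They had to carry a UMI of Cd8a in the Cd8 class or of Cd4 in the Cd4 class. These depth-matched cells came out at 22.8% for the Cd8 class and 22.9% for the Cd4 class, each close to the Tdp share. They differ from the whole class in more than depth, and which part matters was not tested. By hashtag number from 1 to 4 the share was 17.0%, 28.7%, 22.0% and 22.2% in Cd8-identity Tdp, against 18.9%, 15.8%, 19.8% and 16.0% in the Cd8 class, so number 1 ran the other way. In Cd4-identity Tdp it was 16%, 21.1%, 55.6% (of 9 cells) and 19.05%, against 14.9%, 8.87%, 14.9% and 13.3% in the Cd4 class.

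The next question was whether double-positive cells of Cd8 identity differed from the Cd8 class in replication genes. Their summed level was nearly the same: 2403 CPM in Cd8-identity Tdp and 2284 CPM in the Cd8 class, a ratio of 1.05 (1.02 to 1.09). By number the Tdp cells had 1641, 2898, 2131 and 2354 CPM, against 2066, 2388, 2404 and 2113 CPM, so 2 numbers were higher and 2 lower. On the log2 scale 23 of the 34 genes lay above 0, with a median of 0.058 against 0.016 over all genes measured. Without cycling cells the sums were 992 and 946 CPM (ratio 1.05, 0.987 to 1.11). Against Cd8 cells of matched depth the log2 ratio turned to -0.25, it was -0.072 without number 2 and -0.0041 once cells with other cell types' UMIs were removed, so the small excess had no stable direction.

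Of the 34 genes, 1 rose and none fell by the rule used throughout, a change of 1.5-fold or more whose interval does not reach 1, against 2.07% of all genes higher and 4.6% lower. That was Cdc6, the loader of the Mcm ring, with 19.7 CPM (37 UMIs) in Cd8-identity Tdp and 12.8 CPM (173 UMIs) in the Cd8 class, a ratio of 1.54 (1.05 to 2.20). By number it had 3.47, 24.1, 17.2 and 23.5 CPM in the Tdp cells, against 10.4, 15.1, 12.6 and 11.7 CPM. The Tdp cells were thus higher in 3 of 4 numbers, and the value in number 1 rests on 1 UMI. The call was lost without number 2 or 4, without cycling cells, at 2000 UMIs per cell, with TMM scaling, without cells of other types' UMIs and against depth-matched cells. Clspn (0.32) and Rfc4 (0.30) had the next highest log2 ratios, and E2f8 (-0.33), Lig1 (-0.24) and Mcm7 (-0.22) the lowest. Without cycling cells these places went to Fen1 (0.42), Prim1 (0.40) and Cdt1 (0.33), and to Lig1 (-0.56), Rrm1 (-0.41) and Tyms (-0.40). None of the 34 passed the rule there, against 1.72% of all genes higher and 4.04% lower.

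Within cycling cells the direction was the opposite. The 34 genes summed to 4927 CPM in cycling Cd8-identity Tdp cells and 5775 CPM in cycling cells of the Cd8 class (ratio 0.853, 0.822 to 0.885), and 5 of the 34 lay above 0 on the log2 scale. The primase subunit Prim1 fell to 51.9 CPM, against 83.5 CPM in the Cd8 class (ratio 0.621, 0.425 to 0.883), and E2f8 to 34.1 CPM, against 57.9 CPM (ratio 0.589, 0.366 to 0.907), where 3.74% of all genes were lower by this rule and 2.88% higher. The mitosis list ran the other way in the same cells, with a sum of 4925 CPM in cycling Cd8-identity Tdp cells against 4007 CPM in cycling cells of the Cd8 class (ratio 1.23, 1.18 to 1.28), where 2 of its 20 genes rose and none fell. Over all cells, where the 34 genes differed little, it summed to 1843 CPM in Cd8-identity Tdp against 1192 CPM in the Cd8 class, and 9 of the 20 rose, against 2.07% of all genes. Cycling Tdp cells accordingly held 1.00 UMI of the 34 genes per UMI of the mitosis list (0.953 to 1.05), against 1.44 (1.41 to 1.47) in the Cd8 class. Cells with UMIs of 2 Trbv genes made up 23.0% of the cycling Tdp cells and 18.2% of the cycling Cd8 cells. Without such cells the log2 ratio of the sum in cycling cells was -0.026 in place of -0.23.

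In Cd4-identity Tdp against the Cd4 class, the summed level was 2034 CPM and 1927 CPM, a ratio of 1.06 (0.994 to 1.12). Without cycling cells it was 933 and 879 CPM (1.06, 0.952 to 1.18), and in cycling cells 4232 and 5108 CPM (0.828, 0.771 to 0.889). The mitosis list was also lower in cycling Tdp cells, at 3252 against 3950 CPM (0.824, 0.758 to 0.893). Only 21 Tdp cells were cycling, at most 8 in any number, so their levels were not compared by number. Of these 21 cells, 10 (47.6%) had UMIs of 2 Trbv genes, against 14.8% of the cycling Cd4 cells. Over all cells too the Tdp values rest on few cells: 1 cell held 10.9% of the UMIs of the 34 genes and 7 cells held 50% of them. By number the ratio was 0.469 for number 1, where none of the 34 genes was higher in the 25 Tdp cells, 1.28 for number 2 and 1.19 for number 4, while number 3 had only 9 Tdp cells. The median log2 ratio over the 34 genes, 20 of them above 0, was 0.066, against -0.026 over all genes measured. The log2 ratio ran from -0.083 to 0.32 as single numbers were left out, and against depth-matched Cd4 cells it was -0.35.

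None of the 34 genes rose by the rule and 1 fell, against 2.2% of all genes higher and 2.92% lower. The helicase subunit Mcm7 had 36.7 CPM (21 UMIs) in Cd4-identity Tdp and 57.2 CPM in the Cd4 class, a ratio of 0.641 (0.394 to 0.989). By number 1, 2 and 4 it had 15.5, 32.6 and 50.6 CPM in the Tdp cells, against 63.9, 49.98 and 51.1 CPM, lower in all 3 although number 4 was nearly equal. The call was lost without number 1 or 2, at 2000 UMIs per cell and without cycling cells. The other lowest log2 ratios were those of Tipin (-0.39) and Exo1 (-0.23), and the highest those of Mcm5 (0.41), Cdc45 (0.38) and Gins2 (0.33). In the 21 cycling Tdp cells Mcm7 fell by the rule to 73.3 CPM (14 UMIs in 7 cells), against 149 CPM in cycling cells of the Cd4 class. Mcm6 fell to 131 CPM (25 UMIs in 10 cells), against 213 CPM, and Tipin to 89.0 CPM (17 UMIs in 9 cells), against 151 CPM. Among cycling cells 2.31% of all genes were lower and 2.93% higher.

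Outside cycling cells only Lig1 passed the rule in this comparison, where 2.28% of all genes were higher. The ligase had 44.6 CPM in Cd4-identity Tdp and 22.9 CPM in the Cd4 class, a ratio of 1.95 (1.11 to 3.21), from 17 UMIs in 10 Tdp cells with up to 5 in 1 cell. In numbers 1 and 2, which had at least 20 such Tdp cells, it had 10.5 CPM (1 UMI) and 76.5 CPM, against 22.6 and 27.1 CPM, so only number 2 was higher. Mcm5 (0.66) and Mcm4 (0.49) had the next highest log2 ratios there, and Ung (-1.13), Uhrf1 (-1.12) and Rfc4 (-0.75) the lowest, resting on 0, 1 and 2 UMIs in the Tdp cells.

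Between the double-positive classes, the sum was 2403 CPM in Cd8-identity Tdp and 2034 CPM in Cd4-identity Tdp (ratio 1.18, 1.11 to 1.26). Without cycling cells the sums were 992 and 933 CPM (1.06, 0.944 to 1.20). In cycling cells, 74 and 21 in number, they were 4927 and 4232 CPM (1.16, 1.08 to 1.26). By number the ratio over all cells was 1.78 in number 1, 1.25 in number 2 and 0.956 in number 4. Of 33 measured genes, all but Exo1, 3 rose and none fell, against 3.95% of all genes higher and 3.09% lower. The median log2 ratio of the 33 was 0.21, against 0.017 over all genes measured.

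Mcm6 had 145 CPM in Cd8-identity Tdp and 89.1 CPM in Cd4-identity Tdp (ratio 1.63, 1.20 to 2.24), with 108, 173 and 135 CPM against 54.2, 83.8 and 101 CPM in numbers 1, 2 and 4. The single-strand binding subunit Rpa2 had 137 and 89.1 CPM (1.53, 1.13 to 2.11), with 59.0, 162 and 137 CPM against 38.7, 126 and 93.9 CPM. Uhrf1, which reads newly copied DNA methylated on 1 strand behind the fork, had 48.4 and 28.0 CPM (1.73, 1.01 to 3.16), the lower value from 16 UMIs, with 45.1, 54.1 and 43.9 CPM against 15.5, 27.9 and 21.7 CPM. Each was higher in all 3 numbers that could be compared. The numbers are parts of the sums by which these genes were called, and how many of all genes were so was not counted. Mcm6 lost its call without number 2 or without cycling cells, Rpa2 without number 1 or 3 and at 2000 UMIs per cell, where the log2 ratio of Uhrf1, without added CPM, turned to -0.21. In cycling cells Mcm6 alone passed, at 251 CPM against 131 CPM (1.91, 1.25 to 3.04), where 3.11% of all genes were higher and 3.07% lower. The lower value is that of the same 25 UMIs in 10 cells as in the comparison with the Cd4 class.

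Esco2 had the highest log2 ratio between the double-positive classes at 0.72, without passing the rule, and Lig1 (-0.44), Cdc45 (-0.40) and Gins2 (-0.37) the lowest. Without cycling cells Lig1 fell to 11.6 CPM in Cd8-identity Tdp, against 44.6 CPM in Cd4-identity Tdp, 3.84-fold lower, and Rpa2 rose to 105 CPM, against 68.2 CPM (1.54, 1.01 to 2.45), where 3.11% of all genes were lower and 3.81% higher. Fen1 (0.87) and Pclaf (0.57) were also high on the log2 scale there, and Mcm5 (-0.57) and Slbp (-0.26) low, with values that did not pass. The pair of double-positive classes shares its cells with the comparisons above, so these values are not independent of them.

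**Figure D4:**
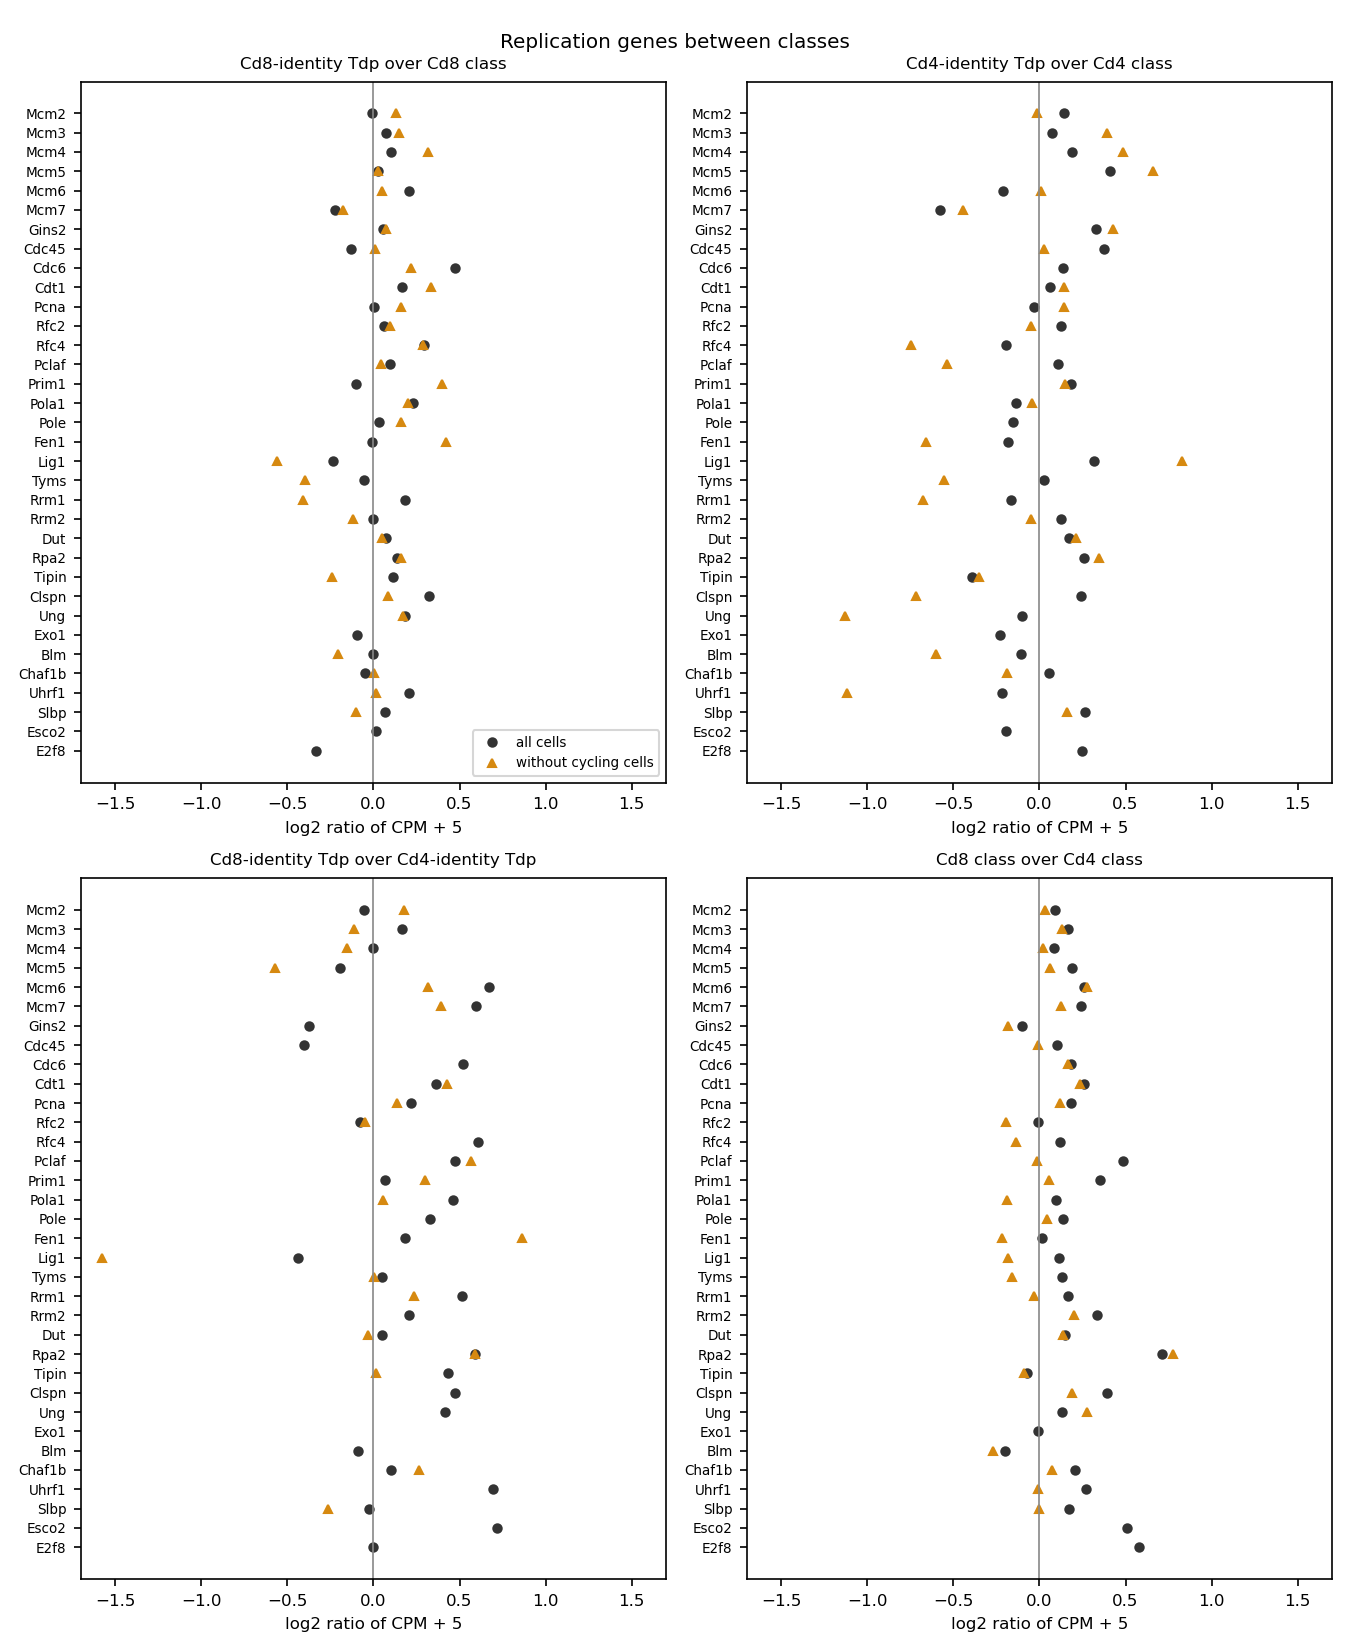
Log2 ratio of CPM with 5 CPM added for each gene in the 4 comparisons of classes, over all cells (circles) and without cycling cells (triangles, where the gene had at least 20 UMIs). In the Cd8 over the Cd4 class Rpa2 stands farthest right, at 0.71 over all cells and 0.78 without cycling cells.

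The single-positive classes gave the most precise comparison, with 2681 and 2477 cells. The sum was 2284 CPM in the Cd8 class and 1927 CPM in the Cd4 class, a ratio of 1.19 (1.16 to 1.21), and 29 of the 34 genes lay above 0 on the log2 scale. By number the Cd8 class had 2066, 2388, 2404 and 2113 CPM, against 1967, 1808, 1785 and 2075 CPM in the Cd4 class, so the ratios were 1.05, 1.32, 1.35 and 1.02. The direction was the same in all 4 numbers, but the lowest Cd8 value (2066) did not exceed the highest Cd4 value (2075). Without cycling cells the ratio was 1.08 (1.04 to 1.11), and in cycling cells 1.13 (1.11 to 1.16), so both the share of cycling cells and the level inside them were higher in the Cd8 class. The median log2 ratio over the 34 genes was 0.16, against -0.012 over all genes measured.

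Of the 34 genes 3 rose by the rule and none fell, against 8.19% of all genes higher and 6.55% lower, so the count of rises is near that of genes in general. Rpa2 had 124 CPM in the Cd8 class and 73.7 CPM in the Cd4 class, a ratio of 1.68 (1.55 to 1.84). By number it had 105, 135, 131 and 111 CPM, against 73.2, 68.7, 77.3 and 81.8 CPM, so the Cd8 class was higher in each number. How many of all genes were so was not counted. Unlike the other rises it was as large outside cycling cells, with 93.6 against 52.6 CPM (1.78, 1.59 to 2.00). There the numbers had 83.1, 102, 102 and 78.5 CPM against 50.1, 51.1, 50.8 and 63.7 CPM, again higher in each. In cycling cells it was 204 CPM against 138 CPM, 1.48-fold, where 3.92% of all genes passed the rule as higher and 5.64% as lower. The direction and the call over all cells remained under every alternative tried for this gene, with log2 ratios of 0.66 to 0.82 as single numbers were left out.

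E2f8 had 16.7 CPM in the Cd8 class and 9.53 CPM in the Cd4 class, a ratio of 1.75 (1.38 to 2.24). By number it had 16.1, 15.8, 20.1 and 13.1 CPM, against 10.8, 7.98, 7.48 and 9.02 CPM, so the Cd8 class was higher in each number. This too was not counted over all genes. Within cycling cells it had 57.9 CPM against 35.8 CPM, 1.62-fold, and outside them 0.921 CPM against 0.870 CPM, from 9 and 7 UMIs. Esco2 had 37.3 CPM and 24.8 CPM (1.51, 1.30 to 1.76), with 28.0, 39.0, 40.3 and 37.1 CPM against 27.7, 15.3, 29.9 and 29.5 CPM by number, so number 1 was level and the ranges overlapped. Its call was lost without number 2 or 3 and without cells of 2 Trbv genes. Outside cycling cells it had 0.716 CPM against 0.746 CPM, from 7 and 6 UMIs.

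Pclaf, the most abundant of the 34 by UMIs, had 271 CPM in the Cd8 class and 192 CPM in the Cd4 class, a ratio of 1.41 (1.34 to 1.49) that stayed under the 1.5-fold limit. Rrm2 had 140 against 110 CPM (1.27, 1.18 to 1.37), Slbp, which binds histone mRNA, 178 against 157 CPM (1.13, 1.06 to 1.20), Dut 206 against 186 CPM (1.11, 1.05 to 1.18) and Pcna 108 against 94.7 CPM (1.14, 1.05 to 1.24). The lowest log2 ratios were those of Blm (-0.20), Gins2 (-0.10) and Tipin (-0.07). Without cycling cells Ung (0.28) and Mcm6 (0.27) followed Rpa2, and Blm (-0.27), Fen1 (-0.22) and Rfc2 (-0.20) were lowest, none past the rule. There 9.38% of all genes were higher and 7.09% lower.

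**Figure D5:**
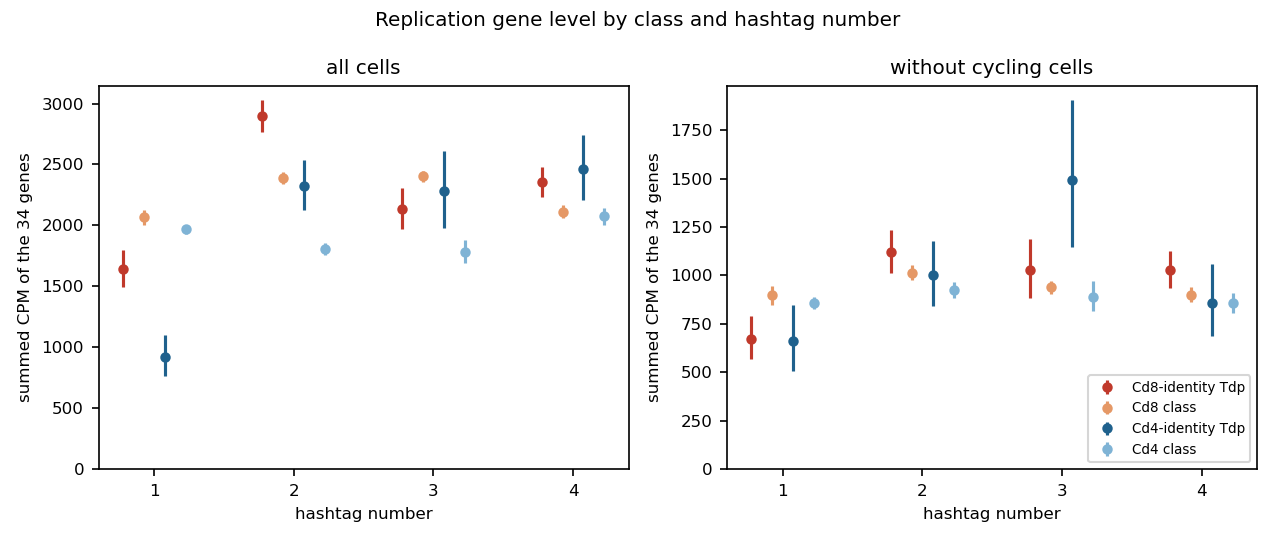
Summed level (CPM) of the 34 genes in each hashtag number, by class, over all cells (left) and without cycling cells (right), where bars are 95% Poisson intervals. The Cd8 class lies above the Cd4 class in each number at left, and points from under 20 cells (Cd4-identity Tdp of number 3, and of number 4 at right) are drawn but not compared.

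Cycling cells of the single-positive classes also differed in their mix. Of the cycling cells, 28.4% of the Cd8 class and 42.6% of the Cd4 class lay in the low tertile of the mitosis list, and 24.3% of Cd8-identity Tdp and 38.1% of Cd4-identity Tdp. UMIs of the 34 genes per UMI of the mitosis list were 1.44 (1.41 to 1.47) in the Cd8 class and 1.29 (1.26 to 1.33) in the Cd4 class, and 1.30 (1.17 to 1.45) in Cd4-identity Tdp. The part of this mix in the differences inside cycling cells was not tested.

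Other genes of replication, 50 in a list that holds none of the 34, gave few calls. Over all cells none of the 50 passed the rule in Cd8-identity Tdp against the Cd8 class (sum ratio 1.08, 1.04 to 1.12). There 2.07% of all genes were higher and 4.6% lower. None passed in Cd4-identity Tdp against the Cd4 class (1.05, 0.988 to 1.12), against 2.2% and 2.92% of all genes. Nor did any pass in the Cd8 against the Cd4 class (1.10, 1.08 to 1.12), against 8.19% and 6.55% of all genes. In Cd8-identity Tdp against the Cd8 class, 2 of 44 measured genes were lower without cycling cells, where 4.04% of all genes were lower, and 4 of 49 in cycling cells, against 3.74% of all genes, and none was higher in either. In Cd4-identity Tdp against the Cd4 class 1 of 43 was lower without cycling cells, where 2.63% of all genes were lower, and in the Cd8 against the Cd4 class 1 of 47 was higher and 1 lower there, against 9.38% and 7.09% of all genes. In cycling cells neither of these comparisons gave a call. In the Cd8 against the Cd4 class the highest log2 ratios were those of Dbf4 (0.45), the regulator of the Cdc7 kinase, Tk1 (0.37), thymidine kinase, and Rnaseh2b (0.34), and the lowest those of Msh6 (-0.23), Pole4 (-0.11) and Hells (-0.07). In Cd8-identity Tdp against the Cd8 class Wdhd1 (0.37), Hells (0.37) and Gins4 (0.32) were highest, and Gins1 (-0.46), Orc4 (-0.41) and Pold1 (-0.30) lowest. In Cd4-identity Tdp against the Cd4 class Orc1 (0.62) and Dnmt1 (0.40) were among the highest, and Gins3 (-0.93), Brca2 (-0.51) and Rpa3 (-0.49) lowest. Between the double-positive classes 2 of 44 measured genes rose over all cells, near the 3.95% of all genes that did, the GINS subunit Gins3 with 17.0 CPM in Cd8-identity Tdp and 3.49 CPM (2 UMIs) in Cd4-identity Tdp, and the Rpa subunit Rpa3 with 69.7 and 45.4 CPM.

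Genes that control entry into S phase, 24 cyclins, kinases, inhibitors and E2F factors, gave few calls over all cells. In Cd8-identity Tdp against the Cd8 class none was higher and 1 lower, against 2.07% and 4.6% of all genes. In Cd4-identity Tdp against the Cd4 class none was higher and 2 lower, against 2.2% and 2.92%. Between the Tdp classes 1 of 22 measured was higher and none lower, against 3.95% and 3.09%. In the Cd8 against the Cd4 class 1 was higher and 2 lower, against 8.19% and 6.55%. The cyclin-dependent kinase inhibitor Cdkn1a fell to 49.98 CPM in Cd8-identity Tdp, against 98.0 CPM in the Cd8 class (ratio 0.510, 0.409 to 0.629), and to 52.4 CPM in Cd4-identity Tdp, against 85.7 CPM in the Cd4 class (0.612, 0.410 to 0.879). The D-type cyclin Ccnd1 had no UMI in Cd4-identity Tdp, against 19.1 CPM in the Cd4 class, while it had 30.8 CPM in Cd8-identity Tdp and 29.7 CPM in the Cd8 class. In the Cd8 class Ccnd1 was thus higher than in the Cd4 class (1.56, 1.31 to 1.85), while another D-type cyclin, Ccnd2, fell to 245 CPM, against 368 CPM in the Cd4 class, and the inhibitor Cdkn2a to 7.17 CPM, against 11.7 CPM. In Cd8-identity Tdp, by contrast, Cdkn2a had 11.7 CPM (22 UMIs), against the 7.17 CPM of the Cd8 class (1.63, 0.977 to 2.61), the highest log2 ratio of the list there at 0.46, without passing the rule over all cells. Without cycling cells it passed, with 7.46 CPM (9 UMIs) against 2.97 CPM (2.51, 1.05 to 5.46), where 1.72% of all genes were higher. The genes of this list were not measured again without cells carrying UMIs of other cell types. Over all cells macrophage or monocyte markers had ratios of 0.349 in Cd8-identity Tdp over the Cd8 class and 0.108 in Cd4-identity Tdp over the Cd4 class. In the Cd8 over the Cd4 class their ratio was 2.17. Whether this bears on the values of the list was not tested. Other high log2 ratios of the list over all cells were those of Rbl2 (0.39) and Cdkn2c (0.35) in Cd8-identity Tdp over the Cd8 class, and low ones those of Myc (-0.47) and Ccne2 (-0.36), none past the rule there. Without cycling cells 2 of 22 measured genes were higher and 1 lower in this comparison, against 1.72% and 4.04% of all genes. In Cd4-identity Tdp against the Cd4 class none of 22 was higher and 3 were lower, against 2.28% and 2.63%. Between the Tdp classes 3 of 17 were higher and none lower, against 3.81% and 3.11%. In the Cd8 against the Cd4 class 3 of 23 were higher and 2 lower, against 9.38% and 7.09%.

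The annotated bodies of some genes overlap another measured gene, namely Gins2 with Gse1, Mcm7 with Ap4m1, Ung with Alkbh2, Cdc45 with Ufd1, Rfc4 with Eif4a2, Pclaf with Trip4, Fen1 with Tmem258, Lig1 with Zswim9 and E2f8 with a long noncoding RNA gene. Pcna and Tyms also have annotated pseudogenes. The rule by which reads shared between such genes were assigned is not known here, so their values are less certain.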

How the data were processed

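Expression was taken from a deposited table of raw counts (UMIs per gene and cell), whose values the authors did not normalize. Per the submitters' processing notes, which give no roles, Cell Ranger 3.1.0, Seurat 3.2.3 and build mm10 were used. Cell filters, doublet removal and class calls are not given in the sources used here. Hashtag and T cell receptor libraries and the deposited antibody table were not analysed here. No doublet caller was run, and cells with 2 Trbv genes were left out in an alternative instead.

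The counts of each class's cells were added up and divided by the class total of all genes (CPM), without 117 receptor genes (0.325% of UMIs). Log2 ratios of genes were taken after adding 5 CPM. Folds, sums and the alternatives for single genes were taken without it. Levels have exact Poisson intervals, ratios exact conditional binomial and shares Clopper-Pearson ones, all at 95% and for counting error only. A gene counted as measured from 20 UMIs in the pair of classes, and as higher or lower from 1.5-fold if its interval did not reach 1. This is a rule of size and not a significance test. Comparisons of levels by hashtag number needed at least 20 cells of each class. Levels of different genes were not compared, since 5′ counts are not scaled for length.

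The 34 genes and all lists were chosen with earlier results of these data known, and the mitosis tertiles after the data were seen. Named genes are the 10 with the most UMIs (Pclaf, Dut, Slbp, Rrm2, Mcm6, Rpa2, Pcna, Mcm4, Mcm3 and Rfc2), those that passed in a comparison, the 3 highest and 3 lowest log2 ratios per comparison and the 5 highest and 5 lowest shares in cycling cells, plus the 3 highest and lowest of each other list, a part of which is printed.

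Counts were simulated with Poisson counting error only, so the rates do not cover variation between cells or mice. In each comparison 100 genes were raised 2-fold and 100 lowered 2-fold, drawn from genes with at least 100 UMIs (numbers in brackets). The rule called 99% of raised and 84% of lowered genes for Cd8-identity Tdp and the Cd8 class (8627 genes). It called 83% and 63% for Cd4-identity Tdp and the Cd4 class (7916 genes). Between the Tdp classes it called 96% and 88% (3530 genes), and between the single classes 100% and 100% (9454 genes). Of genes simulated with no change and at least 20 UMIs it called 1.55%, 2.25%, 2.55% and 1.01% in the same order. Python 3.11.15, numpy 2.4.6, scipy 1.17.1, pandas 2.3.3 and matplotlib 3.10.9 were used, and edgeR 4.0.16 in R 4.3.3 for TMM scaling only.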

Additional observations from a re-analysis of the deposited data

How the results depend on the processing

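All values are log2 ratios unless called counts or shares, without added CPM for sums and single genes. Cd8-identity Tdp over the Cd8 class, 0.073 over all cells, was 0.022 with TMM scaling, -0.25 against depth-matched cells, 0.27 without cells of 2 Trbv genes, -0.0041 with cells of other types' UMIs removed, and -0.072 to 0.14 as single hashtag numbers were left out. Without cycling cells (0.069) it was 0.16 thinned to 2000 UMIs, -0.079 depth-matched, 0.19 without cells of 2 Trbv genes and 0.16 with a cycling limit of 1 UMI. In cycling cells (-0.23) it was -0.32 thinned, -0.35 depth-matched, -0.026 without cells of 2 Trbv genes, -0.33 with a limit of 4 UMIs and -0.28 to -0.20 with single numbers left out. The count of higher genes (1) was 0 with TMM, depth-matched and without other cell types and 2 without cells of 2 Trbv genes, and that of lower genes (0) was 2 depth-matched.

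Cd4-identity Tdp over the Cd4 class, 0.078 over all cells, was 0.29 thinned, -0.35 depth-matched, 0.17 without cells of 2 Trbv genes, -0.026 without other cell types and -0.083 to 0.32 with numbers left out. Without cycling cells (0.086) it was -0.12 depth-matched and -0.14 without cells of 2 Trbv genes. In cycling cells (-0.27) it was -0.14 thinned, -0.15 without cells of 2 Trbv genes, -0.42 without other cell types and -0.47 to -0.16 with numbers left out. Higher genes (0) numbered 3 thinned and 2 without cells of 2 Trbv genes, and lower genes (1) numbered 0 thinned, 0 without other cell types and 8 depth-matched.

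Cd8-identity over Cd4-identity Tdp, 0.24 over all cells, was 0.10 thinned, 0.36 without other cell types and 0.11 to 0.36 with numbers left out, 0.38 without cycling cells and cells of 2 Trbv genes (0.088 before), and in cycling cells (0.22) 0.039 thinned, 0.35 and 0.038 with limits of 1 and 4 UMIs and 0.054 to 0.38 with numbers left out. Higher genes (3) numbered 1 thinned, 7 without other cell types and 8 by the fold alone. The Cd8 over the Cd4 class, 0.25 over all cells, was 0.37 as a mean of per-cell CPM, 0.33 thinned, 0.28 with TMM, 0.19 without cells of 2 Trbv genes, 0.34 without other cell types and 0.19 to 0.30 with numbers left out. Without cycling cells (0.11) it was 0.050 and 0.16 under those last 2 filters on cells, and in cycling cells (0.18) 0.22 thinned, 0.30 with a limit of 1 UMI and 0.14 to 0.19 with numbers left out. Higher genes (3) numbered 7 thinned. Among single genes, Uhrf1 turned to -0.21 between the Tdp classes when thinned, and Esco2 to -0.058 in the Cd8 over the Cd4 class without cycling cells. Shares of cycling cells moved to 18.4%, 13.5% and 9.09% when thinned. The causes were not tested. Over all results and alternatives, 161 values kept their direction and side of the limit or stayed near the main value. Another 56 moved further, 34 lost a call or gave fewer called genes, 8 gave more called genes and 5 turned round. A sum counted as turned round only where its main interval did not include equal levels. The other changes of sign listed for sums, as in Cd4-identity Tdp over the Cd4 class, were therefore counted as moved. No paired analysis was possible because all cells came from 1 library of pooled mice.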
